A study of Mus musculus with 6 samples.

Results

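Semaphorins and their receptor Plexin D1 were examined in tumor endothelial cells (ECs) of mice with and without Apelin. The family was chosen because the study marked Sema4b for its measured difference between the genotypes, so the WT and Apelin-KO values of its members are given as a description without a test. The members were Sema3c, Sema3f, Sema3g, Sema4a, Sema4b, Sema4c, Sema4d, Sema6a, Sema6d and Plxnd1, which are 10 of the 24346 gene symbols measured. They hold 9 of the 20 semaphorin genes of the series. The design compared 3 WT samples with 3 Apelin-KO samples of C57BL/6 mice. How the knockout allele was made is not given in the sources used here. All mice carried subcutaneous MC38 tumors, a murine colon carcinoma line that is not part of the knockout, and were 8 to 10 weeks old. The tumors were taken at day 19, dissociated with enzyme and sorted for cells positive for CD31 and negative for CD45. Every sample title also names saline, which the methods for RNA-sequencing do not mention. No source says whether each sample came from a separate animal, so the spread between samples may be partly technical.

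Semaphorins are guidance proteins that steer growing axons and blood vessels by making the actin cytoskeleton of the receiving cell collapse or reorganise. Class 3 members are secreted and mostly bind neuropilins, which pair with plexins as the signalling receptor. Class 4 and class 6 members span the membrane and bind plexins directly. Plexin D1 is the plexin most closely tied to ECs, and signals from it restrain sprouting and pattern vessels in the embryo. Its best known ligand is Sema3e. Several class 4 semaphorins, among them Sema4a and Sema4d, are also made by immune cells.

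Levels are given as FPKM, sequenced fragments divided by transcript length and by library size. Apln itself, which encodes Apelin, was 432, 435 and 504 FPKM in the WT samples and 9.96, 17.5 and 24.3 FPKM in the Apelin-KO samples, so it was lower in the knockout but not at 0. The source of the remaining Apln reads was not tested. Of 10964 genes tested, Apln alone passed an adjusted p under 0.05, by limma with Benjamini-Hochberg adjustment (adjusted p = 0.00747), which is 0.00912% of the genes. The log2 difference was 4.73 ± 0.29 (limma SE), and with each gene's own variance, without WT replicate 2 or without Apelin-KO replicate 2 the call was lost at differences of 4.73, 4.76 and 4.78. The log2(FPKM + 1) values of 2 samples correlated across genes at 0.961 to 0.969 within a genotype and at 0.948 to 0.974 between genotypes. Depth was estimated from the steps of the low FPKM values as 8940000 to 10230000 reads per sample. All 15 endothelial markers averaged at least 1 FPKM, and their summed FPKM was 4642 to 5574 in WT and 5736 to 6066 in Apelin-KO samples. Of 20 hematopoietic markers, 14 averaged at least 1 FPKM, and their summed FPKM was 248 to 820 in WT and 115 to 305 in Apelin-KO samples. Fibroblast markers summed to 276 to 495 FPKM in WT and 181 to 285 FPKM in Apelin-KO samples, and 11 of 12 averaged at least 1 FPKM. Pericyte markers summed to 581 to 748 FPKM in WT and 645 to 755 FPKM in Apelin-KO samples, which overlapped, and 8 of 12 averaged at least 1 FPKM. Mcam alone, at 436 to 571 FPKM over the samples, gave most of these sums, so they are not a measure of pericyte RNA. Of 12 epithelial and tumor cell markers 1 averaged at least 1 FPKM, which was Krt20 at 6.41 to 20.6 FPKM over the samples, and Cldn3 was listed at 0. Their summed FPKM was 8.72 to 13.6 in WT and 9.40 to 21.8 in Apelin-KO samples. In these bulk samples, fewer cells of a type and less RNA per cell cannot be told apart.

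The members differed widely in level, and Sema3f and Plxnd1 stood far above the others. FPKM is a level per transcript length, so it can be compared between genes. Sema3f stood highest, with a mean of 346 ± 38.6 FPKM (SD, n = 6), a mean above that of 99.2% of all genes listed. It made up 66.8% of the summed FPKM of the 20 semaphorin genes, with a range of 63.7% to 69.4% over the samples. Plxnd1 followed at 133 ± 15.1 FPKM (SD, n = 6), and Sema3f exceeded it 2.25-fold to 2.97-fold in each of the 6 samples. Sema6d came next at 61.1 ± 9.81 FPKM (SD, n = 6) and held 11.8% of the summed semaphorin FPKM. Its 6 values lay below all those of Plxnd1 and above all those of Sema6a. Sema6a, at 20.5 ± 2.69 FPKM (SD, n = 6), and Sema4c, at 19.9 ± 4.28 FPKM (SD, n = 6), overlapped, and Sema6a was the higher of them in 4 of 6 samples. A gap followed, since Sema4c was 3.14-fold to 8.92-fold above Sema3g, at 3.54 ± 1.11 FPKM (SD, n = 6). Below it came Sema4d at 1.44 ± 1.28 FPKM (SD, n = 6), Sema4b at 0.966 ± 0.464 FPKM (SD, n = 6), Sema4a at 0.470 ± 0.395 FPKM (SD, n = 6) and Sema3c at 0.239 ± 0.0864 FPKM (SD, n = 6). From Sema3g downward, each neighbour in this order overlapped the next. The order held in 5 of 6 samples for Sema3g over Sema4d, for Sema4b over Sema4a and for Sema4a over Sema3c, and in 4 of 6 for Sema4d over Sema4b. Together the 9 member semaphorins carried 86.9% to 88.9% of the summed semaphorin FPKM, and that sum was 449 to 600 FPKM.

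**Figure D1:**
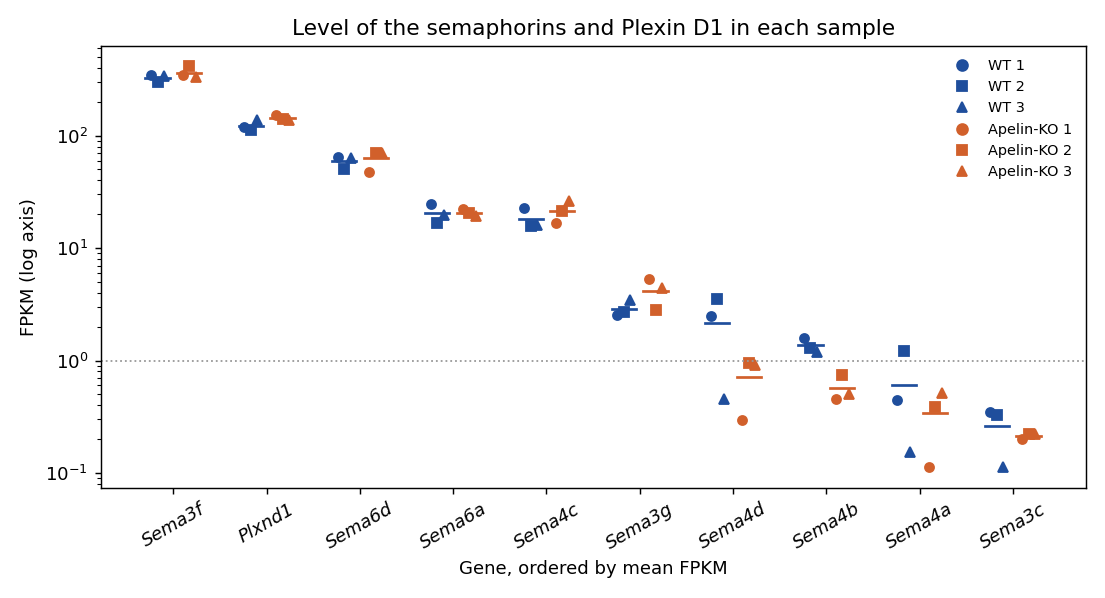
FPKM of each gene in each sample on a log axis, with blue symbols for WT, orange symbols for Apelin-KO and short lines for group means (n = 3). The dotted line marks the mean of 1 FPKM required for the test, and Sema4b is the gene whose WT and Apelin-KO symbols do not overlap.

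Sema3f, a secreted ligand that binds neuropilin 2 and repels both axons and ECs, lies on the minus strand at chr9:107681500-107710475 of GRCm38 (mm10). Its level was 347, 299 and 336 FPKM in the WT samples and 345, 416 and 331 FPKM in the Apelin-KO samples. The groups overlapped, and Apelin-KO replicate 2 was the highest. The log2 difference, taken here and below as WT minus Apelin-KO on the log2(FPKM + 1) scale, was -0.15 ± 0.13 (limma SE), and -0.05 without Apelin-KO replicate 2. Sema3g, a secreted ligand known from arterial endothelium that also acts through neuropilin 2, lies on the plus strand at chr14:31217860-31230352. Its level was 2.53, 2.70 and 3.46 FPKM in WT and 5.34, 2.81 and 4.38 FPKM in Apelin-KO samples. Apelin-KO replicate 2 lay among the WT values while the other Apelin-KO samples lay above them. The log2 difference of Sema3g was -0.39 ± 0.20 (limma SE), between -0.59 without Apelin-KO replicate 2 and -0.22 without Apelin-KO replicate 1. Sema3c, a secreted ligand that guides the outflow tract of the heart and can signal through Plexin D1 with neuropilins, lies on the plus strand at chr5:17574281-17730268. Its level was 0.350, 0.325 and 0.114 FPKM in WT and 0.201, 0.224 and 0.221 FPKM in Apelin-KO samples. With an assumed fragment of 200 bases these values correspond to about 5.5 to 18.7 reads, so Sema3c was measured near the limit of this depth. Its WT values surrounded its Apelin-KO values, and the log2 difference was 0.05 ± 0.09 (limma SE), between -0.0004 without WT replicate 1 and 0.14 without WT replicate 3, and 0.13 with a pseudocount of 0.1.

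Sema4b, a membrane-bound class 4 semaphorin, was the member whose 2 genotypes did not overlap. It lies on the plus strand at chr7:80186841-80226527, and its longest coding transcript has 15 exons and 3949 bases. Its level was 1.60, 1.30 and 1.19 FPKM in WT samples and 0.454, 0.751 and 0.506 FPKM in Apelin-KO samples. All 3 WT samples were above 1 FPKM and all 3 Apelin-KO samples were below it. The group means were 1.36 ± 0.211 FPKM (SD, n = 3) in WT and 0.570 ± 0.159 FPKM (SD, n = 3) in Apelin-KO samples, a ratio of 2.39. These values correspond to about 60.6, 43.5 and 40.7 reads in WT and 15.8, 28.8 and 17.9 reads in Apelin-KO samples. On the log2(FPKM + 1) scale the difference was 0.59 ± 0.11 (limma SE, from the fit over all genes above 0). With a pseudocount of 0.1 in place of 1 it was 1.14, since a pseudocount of 1 compresses the difference of a gene near 1 FPKM. With 1 sample left out it lay between 0.52 and 0.67. Its mean of 0.966 FPKM put it just below the mean of 1 FPKM required for the test, so it was not among the genes tested. This difference is the one for which the family was chosen and is no evidence of its own. Over all 16341 genes above 0 in at least 1 sample, 6.65% had WT values that all lay above the Apelin-KO values.

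The sequences upstream of Sema4b and of Plxnd1 are shown because Sema4b is the member for which the family was chosen and Plxnd1 is the receptor among the members. Sema4b is not given here as a ligand of Plexin D1. RefSeq promoter windows (GRCm38.p6) matched 8 of the 10 members by symbol, with 16 windows for different start sites, and Sema3f and Sema6a had no entry. Each sequence below is the 250 bases before a start site on the gene's own strand, 5′ to 3′. Sema4b has 2 windows, at chr7:80186620-80186869 and chr7:80198338-80198587 on the plus strand, and FPKM per gene does not tell which start was used. The Plxnd1 window is chr6:115995006-115995255 on the minus strand. Capitals mark matches on either strand to GGGCGG (SP1), CCGGAA (ETS), TGANTCA (AP-1), ACGTG (the core of the hypoxia response element), TGGGAA (RBPJ), GTAAACA (forkhead) and CACGTG (E-box, which contains ACGTG).
Sema4b window 1: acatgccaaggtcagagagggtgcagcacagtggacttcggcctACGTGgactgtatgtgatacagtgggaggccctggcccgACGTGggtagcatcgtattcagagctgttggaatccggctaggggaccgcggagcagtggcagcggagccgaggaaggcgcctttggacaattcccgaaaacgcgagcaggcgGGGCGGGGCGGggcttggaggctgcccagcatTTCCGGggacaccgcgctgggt
Sema4b window 2: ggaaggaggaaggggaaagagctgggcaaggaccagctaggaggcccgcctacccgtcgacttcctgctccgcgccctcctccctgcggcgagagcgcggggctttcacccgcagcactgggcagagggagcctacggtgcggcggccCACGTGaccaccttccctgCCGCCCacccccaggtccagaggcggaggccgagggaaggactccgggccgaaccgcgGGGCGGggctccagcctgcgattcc
Plxnd1: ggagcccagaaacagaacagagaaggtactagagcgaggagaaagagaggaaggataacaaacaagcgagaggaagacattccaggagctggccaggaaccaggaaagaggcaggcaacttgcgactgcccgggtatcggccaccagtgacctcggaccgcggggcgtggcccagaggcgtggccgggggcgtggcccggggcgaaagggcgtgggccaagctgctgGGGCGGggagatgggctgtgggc
GGGCGG was found in 12 of the 16 windows of the members, at least once for each of the 8 genes, and in 32.7% of all 32851 windows of this length. ACGTG was found in both Sema4b windows and in 5 of 16 windows of the members, against 16.6% of all windows. CCGGAA was found in the first Sema4b window, as its reverse complement, and in 2 of 16 windows of the members, against 12.0% of all windows. The E-box was in the other Sema4b window and in 2 of 16 windows of the members, against 6.02% of all windows. TGANTCA, at 2 of 16 against 6.75%, and TGGGAA, at 3 of 16 against 21.6%, were found in windows of other members, and GTAAACA in none of the 16 against 3.17%. The members' windows were 45.2% to 78.4% GC, where the median of all windows was 52.4%, and windows of 1 gene are not independent. These matches are a description of the letters in the windows.

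Sema4d, which binds Plexin B1 on ECs and CD72 on immune cells and is best known from T cells, lies on the minus strand at chr13:51685529-51793747. It varied most among the members relative to its mean (SD 89.1% of the mean over 6 samples), with values of 2.50, 3.52 and 0.457 FPKM in WT and 0.294, 0.960 and 0.910 FPKM in Apelin-KO samples. WT replicates 1 and 2 were above all other samples, and WT replicate 3 lay within the Apelin-KO range. These values correspond to about 108, 135 and 17.9 reads in WT and 11.7, 42.1 and 36.7 reads in Apelin-KO samples. The log2 difference was 0.75 ± 0.41 (limma SE), with 1.23 when WT replicate 3 was left out and 0.42 when WT replicate 2 was left out. With a pseudocount of 0.1 it was 1.21. Sema4a, a class 4 semaphorin of dendritic cells and T cells that also has been linked to Plexin D1 on ECs, lies on the minus strand at chr3:88435959-88461182. Its level was 0.448, 1.21 and 0.153 FPKM in WT and 0.112, 0.385 and 0.518 FPKM in Apelin-KO samples, or about 3.12 to 32.4 reads. WT replicate 2 alone exceeded 1 FPKM, and the other samples of both genotypes were intermingled. The log2 difference of Sema4a was 0.22 ± 0.26 (limma SE) and was -0.04 without WT replicate 2 and 0.50 with a pseudocount of 0.1. An exon of the microRNA gene Mir7011, itself listed at 0, overlaps Sema4a on the same strand. Sema4c, the class 4 ligand of Plexin B2, lies on the minus strand at chr1:36548639-36558349. Its level was 22.6, 15.8 and 16.2 FPKM in WT and 16.8, 21.5 and 26.3 FPKM in Apelin-KO samples. Each genotype held both high and low samples, and the log2 difference of -0.23 ± 0.20 (limma SE) was -0.08 without Apelin-KO replicate 3, -0.39 without Apelin-KO replicate 1 and -0.39 without WT replicate 1. Sema4c shares 334 exon bases with a gene on the opposite strand, and whether reads were counted by strand is not stated.

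**Figure D2:**
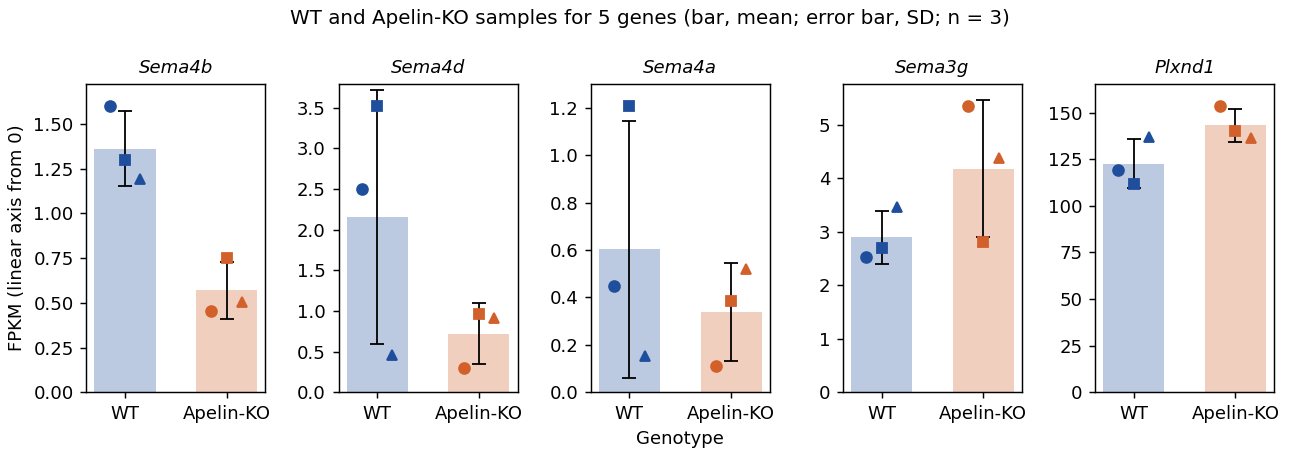
FPKM by genotype for 5 genes on linear axes from 0, with bars for group means, error bars for SD (n = 3) and symbols for samples. The Sema4b groups of 1.36 and 0.570 FPKM are apart, whereas the other 4 genes have at least 1 sample inside the range of the other genotype.

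The class 6 members are transmembrane proteins that bind class A plexins. Sema6a, a ligand of Plexin A2 and Plexin A4, measured 24.6, 16.6 and 19.8 FPKM in WT and 22.2, 20.5 and 19.4 FPKM in Apelin-KO samples. The highest and the lowest sample were both WT. Its log2 difference of -0.04 ± 0.15 (limma SE) was the smallest in size of the 10 members, and it was positive when FPKM were scaled to the same sum in each sample (0.0020), without WT replicate 2 (0.09) and without Apelin-KO replicate 1 (0.0099). Sema6d, a ligand of Plexin A1 that acts with Ptk7, Kdr or the Trem2 and Tyrobp complex, lies on the plus strand at chr2:124089969-124667770. Its level was 65.2, 50.3 and 63.0 FPKM in WT and 47.8, 69.7 and 70.8 FPKM in Apelin-KO samples. Apelin-KO samples were both the lowest and the highest. The log2 difference of Sema6d was -0.06 ± 0.18 (limma SE), between -0.25 without Apelin-KO replicate 1 and 0.05 without WT replicate 2.

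Plxnd1, the receptor, lies on the minus strand at chr6:115954811-115995005, and its longest coding transcript has 36 exons. Its level was 119, 112 and 137 FPKM in WT samples and 153, 140 and 136 FPKM in Apelin-KO samples. WT replicate 3 exceeded the lowest Apelin-KO sample, so the groups overlapped by this pair alone. The means were 123 ± 13.1 FPKM (SD, n = 3) in WT and 143 ± 8.87 FPKM (SD, n = 3) in Apelin-KO samples, a ratio of 1.17 of Apelin-KO to WT. The log2 difference was -0.23 ± 0.12 (limma SE), between -0.31 without WT replicate 3 and -0.16 without WT replicate 2. About 6700 to 9600 reads stood behind each value. Relative to Nrp1, a neuropilin that pairs with Plexin D1, Plxnd1 stood at 0.839, 0.832 and 0.793 in WT and 0.936, 0.899 and 1.10 in Apelin-KO samples, a ratio of the FPKM of the 2 genes within each sample. These ratios did not overlap between genotypes, although neither gene alone was apart. The ratio was chosen with the values known and was not tested. The FPKM ratio of Plxnd1 to Plxna2 overlapped, at 5.23, 5.51 and 5.69 in WT and 6.86, 4.80 and 5.08 in Apelin-KO samples. That of Plxnd1 to Plxnb2 overlapped as well, at 6.31, 5.29 and 8.16 in WT and 7.71, 8.23 and 7.90 in Apelin-KO samples.

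**Figure D3:**
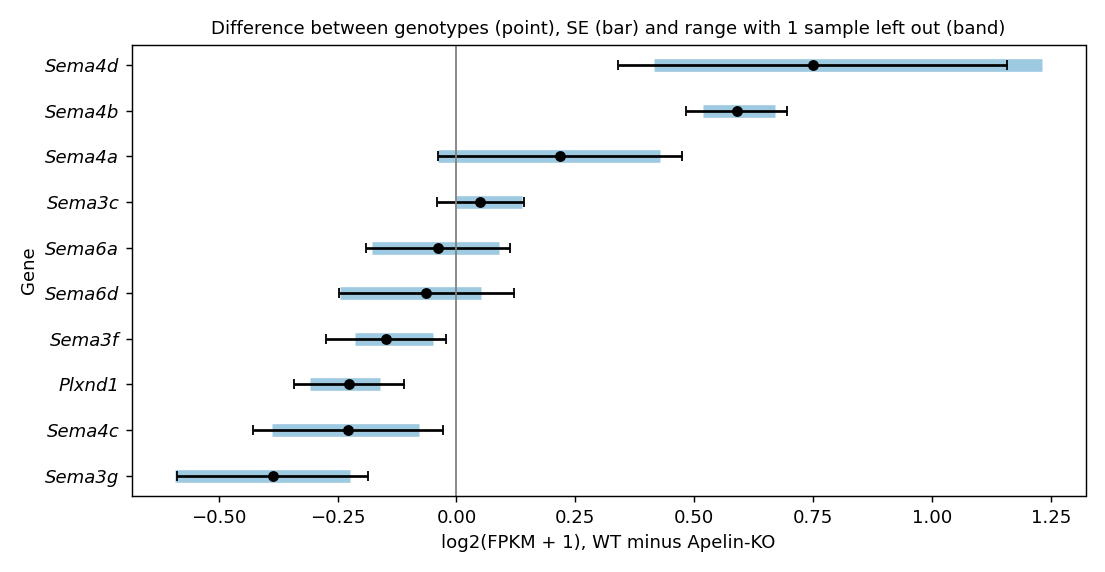
Log2 difference of each gene, WT minus Apelin-KO on the log2(FPKM + 1) scale, with a point for the estimate, a black bar for the limma SE and a band for the range when each of the 6 samples is left out in turn. Sema4d (0.75) and Sema4b (0.59) lie farthest to the right, and the band of Sema4b is the narrower of them.

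Of the 10 members, 4 had a higher mean and 6 a lower mean in WT than in Apelin-KO samples. The 4 with the higher WT mean were also the 4 with the lowest levels. The mean of 1 FPKM required for the test was reached by 7 members, for which no p is given. None of these 7 had genotypes that did not overlap, where 6.61% of all genes tested had WT samples all above and 7.77% had WT samples all below the Apelin-KO samples. Since this contrast was used to choose the family, nothing further is read from these counts. With WT replicate 3 left out, 5 members had genotypes that did not overlap (Sema3c, Sema4b and Sema4d higher and Sema3g and Plxnd1 lower in WT), and with each other sample left out 1 or 2 did. With 2 samples in a group more genes separate: 26.8% of the 16341 genes above 0 did so without WT replicate 3 and 18.4% to 24% without each of the others, against 12.6% with all samples. The median log2 difference of the 7 was -0.15, and that of all genes tested was -0.01. With a sample left out the median of the 7 lay between -0.19 without WT replicate 1 and -0.05 without Apelin-KO replicate 2.

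The endothelial markers are given beside the members because both are read from the same sorted samples. All 15 had lower means in WT, 4 of the 15 passed an unadjusted p under 0.05 by limma and had genotypes that did not overlap, and none passed after Benjamini-Hochberg adjustment (lowest adjusted p = 0.509). Over all genes tested, 4.25% passed that unadjusted threshold lower in WT and 7.77% had WT samples all below the Apelin-KO samples. Over the 6 samples the mean log2(FPKM + 1) of these markers had a Pearson r of 0.89 (rho 0.66) with Plxnd1, -0.86 (rho -0.71) with Sema4d and -0.73 (rho -0.37) with Sema4a. Without WT replicates 1 and 2, the samples farthest from the median of the markers, r was 0.09 for Plxnd1, 0.33 for Sema4d and 0.60 for Sema4a, so these relations rested on those samples. For Sema4b, r was -0.79 (rho -0.89) and -0.87 without those samples, but -0.26 (rho -0.43) after subtraction of the genotype means, and the values before subtraction carry the genotype difference for which the family was chosen. Scaling every sample to the same sum of endothelial markers, a step chosen after the data were seen, multiplied all genes of a sample by the same factor. It raised WT against Apelin-KO, less so for genes of low level because of the pseudocount. The median log2 difference of the genes tested went from -0.01 to 0.19. The log2 difference of Plxnd1 was then -0.0012, with 131, 132 and 135 scaled FPKM in WT and 141, 134 and 124 in Apelin-KO samples, and that of Sema4c was -0.01 and that of Sema3g -0.21. Those of Sema3f (0.08), Sema6a (0.18) and Sema6d (0.16) moved up with this step and changed sign, and that of Sema4b went from 0.59 to 0.70. Nothing on a member's stability is read from this step.

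Markers of blood cells also moved with some members. The mean log2(FPKM + 1) of the 20 hematopoietic markers was 3.02, 3.41 and 2.35 in WT and 1.67, 2.47 and 2.28 in Apelin-KO samples. A higher mean in WT was found for 18 of the 20, and for 5209 of the 10964 genes tested. Of the 14 markers tested, 7 passed an unadjusted p under 0.05 by limma higher in WT, against 5.17% of all genes tested. None passed after Benjamini-Hochberg adjustment, and the median log2 difference of the 14 was 1.20. Ptprc, which encodes the CD45 that the sort selected against, was 3.13, 4.84 and 1.27 FPKM in WT and 0.0430, 1.70 and 0.740 FPKM in Apelin-KO samples. Sema4d ranked the samples of each genotype in the same order as these markers did, with WT replicate 2 highest and WT replicate 3 lowest, and Apelin-KO replicate 2 highest and Apelin-KO replicate 1 lowest. After subtraction of the genotype means, Sema4d and the marker mean had a Pearson r of 0.95 and a Spearman rho of 0.83 over the 6 samples. Sema4a followed with r of 0.91 (rho 0.94), and Plxnd1 ran the opposite way with r of -0.96 (rho -0.83). Without this subtraction, r was 0.95 for Sema4d and 0.92 once Apelin-KO replicate 1 and WT replicate 2, the samples farthest from the median of the markers, were left out. The same step took r from -0.98 to -0.93 for Plxnd1 and from 0.84 to 0.26 for Sema4a, so that of Sema4a rested on those samples. For Sema4b the r within genotypes was 0.59 (rho 0.66), and without the subtraction it was 0.81 (rho 0.89), or 0.79 with the same samples left out. Sema3g had an r of -0.77 within genotypes, -0.87 (rho -0.94) without the subtraction and -0.81 with those samples left out. The same values for Sema3c were 0.76, 0.71 (rho 0.77) and 0.83. WT replicate 3 had a summed hematopoietic FPKM of 248, inside the Apelin-KO range of 115 to 305, and Lyz2 alone gave 101 of it. Its Spi1 (2.12 FPKM) and Nkg7 (4.12 FPKM) lay above all Apelin-KO samples, and its Sema4b was 1.19 FPKM. Of the 14 hematopoietic markers tested, only these 2 markers had genotypes that did not overlap. Over all genes tested, 6.61% had WT samples all above the Apelin-KO samples. Nothing on the source of Sema4b is read from this sample. The values of 6 samples share libraries and scaling, so each r is a description, and the part of blood cell RNA in these levels was not tested. All 12 fibroblast markers had a higher mean in WT. Of the 11 tested, 6 passed the unadjusted limma threshold higher in WT, none passed after Benjamini-Hochberg adjustment, and their median log2 difference was 0.70. The mean of the 12 had an r within genotypes of 0.89 with Sema3c, 0.86 with Sema4d, 0.76 with Sema4c, 0.72 with Sema4b and -0.84 with Plxnd1. Without the subtraction, r over the 6 samples was 0.81 for Sema3c, 0.91 for Sema4d, 0.20 for Sema4c, 0.83 for Sema4b and -0.92 for Plxnd1. With WT replicates 1 and 2 also left out, r was -0.0062 for Sema3c, 0.82 for Sema4d, 0.64 for Sema4c, 0.39 for Sema4b and -0.98 for Plxnd1. Their part was not tested either.

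**Figure D4:**
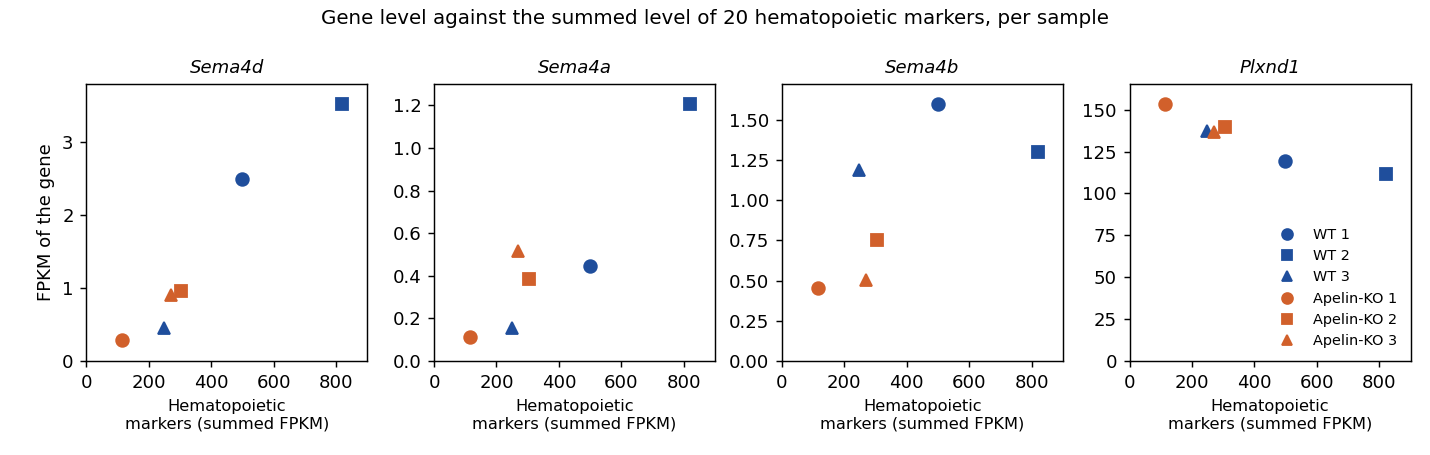
FPKM of 4 genes, each on its own linear axis from 0, against the summed FPKM of 20 hematopoietic markers in the same sample, with blue for WT and orange for Apelin-KO. Sema4d is highest in the 2 WT samples with the highest marker sums, and Sema4b is higher in all 3 WT samples. The marker sums were 248 to 820 FPKM in WT and 115 to 305 FPKM in Apelin-KO samples, and the part of blood cell RNA was not tested.

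The remaining 11 semaphorins added little to the summed level. Sema3e, the best known ligand of Plexin D1, and Sema4f were listed at 0 in all 6 samples. Sema6b, a class 6 ligand of Plexin A4, was the most abundant of them, at 23.6, 23.3 and 25.5 FPKM in WT and 35.1, 28.7 and 33.0 FPKM in Apelin-KO samples. It was lower in every WT sample than in every Apelin-KO sample, with a log2 difference of -0.40 ± 0.11 (limma SE, unadjusted p = 0.00866, Benjamini-Hochberg adjusted p = 0.501), and was the only gene of the 4 tested here to pass the unadjusted threshold, which 5.17% of all genes tested passed higher and 4.25% lower in WT. Sema3b had its lowest WT value of 0.0670 FPKM next to its highest Apelin-KO value of 0.0640 FPKM, and its groups were apart by no more than this. The number of these 4 genes at an unadjusted limma p under 0.05 was 3 without WT replicate 3 or without Apelin-KO replicate 2, and 2 without WT replicate 2. The median log2 difference of the 4 genes tested was 0.12, and it was -0.17 with a minimum mean of 5 FPKM.

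Among the other 8 plexins, 5 were tested and none passed an unadjusted p under 0.05 by limma. Plxna2 was the most abundant, with 22.8, 20.3 and 24.1 FPKM in WT and 22.4, 29.2 and 26.9 FPKM in Apelin-KO samples. Plxnd1 was 4.80-fold to 6.86-fold higher than Plxna2 in each sample. Plxna1, the receptor of Sema6d, was 9.51, 9.85 and 8.81 FPKM in WT and 7.10, 8.10 and 8.63 FPKM in Apelin-KO samples, which did not overlap (log2 difference 0.22 ± 0.11, limma SE). Plxna4 was 3.72, 3.46 and 4.35 FPKM in WT and 3.27, 3.32 and 2.26 FPKM in Apelin-KO samples, again without overlap (log2 difference 0.30 ± 0.14, limma SE). Plxnb3 was apart too, at under 0.1 FPKM in every sample, with 0.0190 FPKM in the lowest WT and 0.0180 FPKM in the highest Apelin-KO sample.

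Of 14 co-receptors and binding partners, 11 were tested, and 4 passed the unadjusted threshold by limma, 3 higher and 1 lower in WT. Over all genes tested, 5.17% passed it higher and 4.25% lower in WT. None passed after Benjamini-Hochberg adjustment over all genes, where the lowest adjusted p was 0.501. Cd72, the receptor of Sema4d on B cells and macrophages, was 10.5, 9.79 and 2.73 FPKM in WT and 1.03, 1.01 and 1.60 FPKM in Apelin-KO samples (log2 difference 1.82 ± 0.42, limma SE). Trem2, a myeloid receptor found in complexes with Plexin A1, was 7.54, 9.50 and 3.68 FPKM in WT and 1.68, 3.29 and 2.62 FPKM in Apelin-KO samples (log2 difference 1.11 ± 0.32, limma SE), and it lost the call in 1 of 13 alternatives. Its adaptor Tyrobp was 50.6, 85.4 and 30.6 FPKM in WT and 16.3, 28.1 and 26.4 FPKM in Apelin-KO samples (log2 difference 1.12 ± 0.37, limma SE), and it lost the call in 3 of 14 alternatives. These 3 are genes of blood cells, and in each of them WT replicate 3, the WT sample with the fewest hematopoietic transcripts, was the lowest WT sample. Cd72 and Trem2, like Sema4b, were picked by the study on these samples and are no independent evidence of a direction. Erbb2, a receptor tyrosine kinase that associates with class B plexins, was 6.80, 6.41 and 6.36 FPKM in WT and 7.93, 7.54 and 8.80 FPKM in Apelin-KO samples (log2 difference -0.27 ± 0.10, limma SE), and lost the call in 5 of 14 alternatives. Ptk7, which takes part in Sema6d signalling, was 27.6, 20.9 and 24.7 FPKM in WT and 29.9, 27.7 and 38.9 FPKM in Apelin-KO samples, without overlap and with an unadjusted limma p of 0.0517, and it passed that threshold in 5 of 14 alternatives. Nrp1 averaged 150 ± 20.5 FPKM (SD, n = 3) in WT and 148 ± 20.8 FPKM (SD, n = 3) in Apelin-KO samples. Nrp2, the receptor of Sema3f, was 49.7, 37.0 and 45.6 FPKM in WT and 37.6, 41.5 and 32.6 FPKM in Apelin-KO samples, which overlapped. The FPKM ratio of Sema3f to Nrp2 was 6.99, 8.07 and 7.37 in WT and 9.17, 10.03 and 10.2 in Apelin-KO samples, a separation chosen after the values were seen and not tested. The integrin subunit Itgb1 was the most abundant of this list, at 619 ± 62.3 FPKM (SD, n = 3) in WT and 662 ± 75.2 FPKM (SD, n = 3) in Apelin-KO samples.

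Downstream of the plexins, 28 of 32 cytoplasmic signalling genes were tested, and 1 passed the unadjusted limma threshold in each direction. The same shares of 5.17% higher and 4.25% lower over all genes tested stand beside this count. Fyn, a kinase that phosphorylates class A plexins and collapsin response mediators, was 111, 93.7 and 119 FPKM in WT and 124, 137 and 140 FPKM in Apelin-KO samples (log2 difference -0.31 ± 0.12, limma SE). It lost the unadjusted call in 7 of 14 alternatives, the replicate block and scaling to a common sum among them. Sh3bp1, a GTPase-activating protein linked to Plexin D1 signalling, was 2.89, 2.67 and 1.67 FPKM in WT and 0.439, 0.858 and 0.994 FPKM in Apelin-KO samples (log2 difference 0.95 ± 0.19, limma SE). It too was picked by the study on these samples. Dpysl2, a collapsin response mediator, was 95.2, 97.2 and 94.4 FPKM in WT and 112, 99.2 and 136 FPKM in Apelin-KO samples, so the groups were apart by a narrow margin. Cofilin, encoded by Cfl1, was the most abundant gene of this list at 750 ± 46.1 FPKM (SD, n = 3) in WT and 806 ± 60.2 FPKM (SD, n = 3) in Apelin-KO samples. The list's median log2 difference was -0.08.

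Of 8 proteases that cleave semaphorins, 7 were tested and none passed the unadjusted limma threshold. Furin, a proprotein convertase that processes class 3 semaphorins, was 55.5, 50.3 and 59.7 FPKM in WT and 61.8, 61.4 and 71.6 FPKM in Apelin-KO samples, which did not overlap. Pcsk6, another convertase, was also apart, with 34.4, 25.1 and 34.1 FPKM in WT and 36.7, 37.3 and 37.1 FPKM in Apelin-KO samples. Mmp14, which can release Sema4d from the membrane, was the most abundant at 307 ± 61.8 FPKM (SD, n = 3) in WT and 315 ± 45.2 FPKM (SD, n = 3) in Apelin-KO samples. Over the 5 lists, 55 of 73 genes were tested, of which 4 were higher and 3 lower in WT at an unadjusted limma p under 0.05 and none passed after Benjamini-Hochberg adjustment. The shares over all genes tested were 5.17% higher and 4.25% lower. Cd72, Trem2 and Sh3bp1, which are among those higher in WT, were picked by the study on these samples, so the count is no evidence of its own. Their median log2 difference was -0.05.

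**Figure D5:**
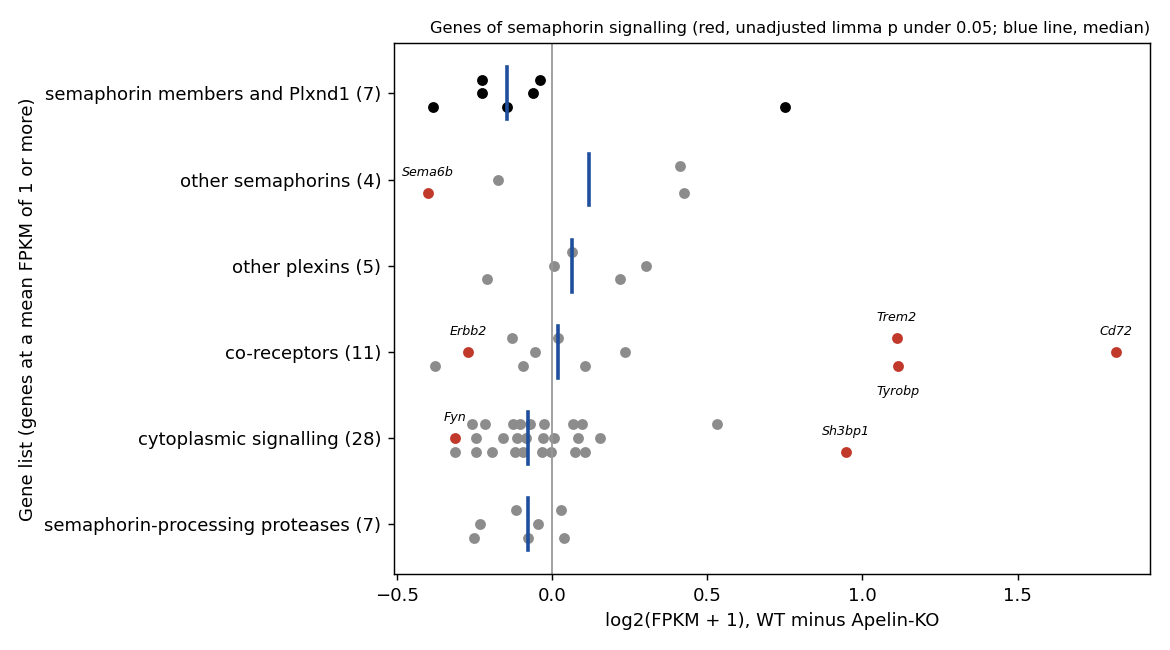
Log2 difference, WT minus Apelin-KO on the log2(FPKM + 1) scale, of each gene tested in 6 lists, with the median of each list as a blue line and genes at an unadjusted limma p under 0.05 in red. The 7 members that reached the required level are in black, and the genes farthest to the right are Cd72, Tyrobp, Trem2 and Sh3bp1.

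Genes with a pattern most like that of Sema4b and of Plxnd1 within the genotypes were taken by the Pearson r of log2(FPKM + 1) over 6 samples after subtraction of the genotype means, among genes that averaged 10 FPKM or more. For Sema4b these were Gaa (r = 0.994), Exosc3 (r = 0.994) and Crkl (r = 0.992), and 17 of 5895 genes had an r above 0.95. For Plxnd1 these were Pvrl3 (r = 0.994), Shroom4 (r = 0.991) and Cenpb (r = 0.991), and 52 of 5894 genes had an r above 0.95. They are given as a description. Within the family, Plxnd1 ran opposite to Sema4d (r = -0.98) and to Sema4a (r = -0.94), and Sema4b ran opposite to Sema3g (r = -0.91), all over the same 6 samples.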

How the data were processed

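RNA-sequencing measured 6 samples of sorted tumor ECs, 3 WT and 3 Apelin-KO. The authors made stranded mRNA libraries, sequenced 75-base single reads, mapped them to mm10 and deposited FPKM, 1 value per gene symbol and sample. The submitters' processing notes name TopHat2 2.1.1, Bowtie2 2.2.4, SAMtools 1.0 and Cufflinks 2.2.1. The annotation and strand setting are not given in the sources used here.

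FPKM were used as deposited, as log2(FPKM + 1). The fit took genes that averaged 1 FPKM or more (10964 of 24346) and was made with limma 3.58.1 (R 4.3.3), a two-sided moderated test with Benjamini-Hochberg adjustment. Members below that mean took their difference and SE from the fit over all genes above 0. The fit was tested on simulated data. Depth was estimated from single-transcript genes (3742 genes), assuming 200-base fragments. Then 69.0% to 72.7% of low values came within 0.1 of whole reads, so counts were not recovered. The depth was picked for this closeness on the same values. The 20% that holds for a depth fixed beforehand is therefore no measure of chance here. Read numbers per gene use the longest coding transcript and are approximate.

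The members and lists were chosen with earlier results of these data known. Named genes are the members, Apln, genes of the 5 pathway lists with an unadjusted p under 0.05 or without overlap, the most abundant gene of each list, and the 3 genes most like Sema4b and Plxnd1. Nrp1, Nrp2, Plxnb2, the markers Ptprc, Lyz2, Spi1, Nkg7, Mcam and Krt20, genes listed at 0 and the overlapping Mir7011 were named outside this rule, after their values were seen. Alternatives were another pseudocount, filter, scaling or variance, a replicate block, and leaving out each sample. Python 3.11.15 with pandas 2.3.3, numpy 2.4.6 and matplotlib 3.10.9 was used for summaries and plots.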

Additional observations from a re-analysis of the deposited data

How the results depend on the processing

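Depth limits Sema3c and Sema4a, which rest on about 3.12 to 32.4 reads in each sample, and 3 samples per genotype limit every comparison. Sema4b and Sema4d reached that range in some samples. Sema4b had about 15.8 to 28.8 reads in Apelin-KO samples, and Sema4d had 11.7 in Apelin-KO replicate 1 and 17.9 in WT replicate 3. The number of genes at an adjusted p under 0.05 was 1, and 2 without a filter, 2 with a minimum mean of 5 FPKM, 2 with an intensity trend, 0 with each gene's own variance (376 genes were then higher in WT and 407 lower at an unadjusted p under 0.05), and 0 to 3 with a sample left out, where it was 0 without WT replicate 2 or without Apelin-KO replicate 2. Apln lost its call in those 3 fits with none, at log2 differences of 4.73 to 4.78 against 4.73. Genes higher in WT at an unadjusted p under 0.05 numbered 567, 330 with a minimum mean of 5 FPKM, and 314 to 738 with a sample left out. Genes lower in WT numbered 466, and 224 to 547 with a sample left out. The number of members without overlap was 1, and 1 to 5 with a sample left out, beside 12.6% of all genes above 0, and 18.4% to 26.8% with a sample left out. Same-numbered samples deviated with correlations of -0.14, 0.21 and -0.02, and differently numbered ones with -0.20 to 0.21. These values cannot tell whether the numbers mark pairs, because both kinds span a like range. With a replicate block 529 genes were higher, 364 lower and 1 passed the adjusted threshold. Fyn passed the unadjusted threshold in 7 of 14 alternatives, Erbb2 in 9, Tyrobp in 11 and Trem2 in 12 of 13. The median of the other semaphorins was -0.17 with a minimum mean of 5 FPKM. The causes were not tested.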
